A study of Mus musculus with 24 samples.

Results

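Cd27, Klrg1, S1pr5, Cx3cr1, Spn and Ly6c2 encode surface proteins by which the maturation of natural killer (NK) cells is followed in the mouse. The 6 genes were picked by name, out of 45237 genes in the count table, and their levels are given here in RNA-seq of NK cells sorted from the spleen. The 24 libraries fall into 7 groups. All came from wild-type (WT) C57BL/6J mice, and the study's general methods give females of 7 to 9 weeks unless specified. The control group (4 libraries) was not treated. The other groups carried RMA, a T cell lymphoma line, or RMA-KR, its derivative, in which B2m was knocked out (leaving no surface MHC class I) and Rae1-β, a ligand of NKG2D, was added with ZsGreen by lentivirus. The methods also describe RMA cells given the vector without Rae1-β, and ZsGreen was used to follow both lines. RMA-KR was cloned by limiting dilution and so stands for 1 clone, and both lines were injected intravenously. Libraries of RMA-bearing mice were made at day 2 (early, 3 libraries), day 4 (intermediate, 3 libraries) and day 9 (late, 3 libraries). Libraries of RMA-KR-bearing mice were made at day 2 (early, 3 libraries), day 7 (intermediate, 5 libraries) and day 14 (late, 3 libraries). At the intermediate and late stages the tumor lines differ in the day as well, so line and day cannot be told apart there. The sort took viable cells with NKp46 or NK1.1 that lacked T cell markers, among them CD3, CD5 and both kinds of T cell receptor.

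NK cells of the mouse mature from cells with CD27 and little CD11b (the product of Itgam) to cells with both, and then to cells with CD11b that have lost CD27. On the way they gain KLRG1, S1PR5, CX3CR1, CD43 (the product of Spn) and Ly6C. The transcription factors T-bet (Tbx21) and Zeb2 are known to drive the late steps, and S1PR5 is known for letting mature NK cells leave bone marrow and lymph nodes. The comparisons below ask whether the RNA of these markers differed between NK cells of tumor-bearing and control mice, between the tumor lines and between stages. In bulk RNA, fewer cells of a maturation stage and less RNA per cell cannot be told apart.

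All 6 genes lie on the minus strand of the mm10 build, in the coordinates of the count table. Cd27 is at chromosome 6, 125232622 to 125237010, and Klrg1 is on the same chromosome at 122270596 to 122282882. S1pr5 lies on chromosome 9, 21242912 to 21248443, and Cx3cr1 on the same chromosome at 119901616 to 120069879. Spn is at chromosome 7, 127132232 to 127137823, and Ly6c2 at chromosome 15, 75108158 to 75111970, in the Ly6 gene cluster beside its near copy Ly6c1 (75044018 to 75048830). Each is annotated as protein coding, and the counts are of reads over their exons. Reads were 50 bases long, and 31.2% of the 50-base windows of the annotated Ly6c2 transcripts also occur in a transcript of another gene, nearly all in Ly6c1, against 0% for Cd27, Klrg1 and Spn, 0.12% for S1pr5 and 1.06% for Cx3cr1. Reads from such windows have no unique position, so the Ly6c2 level is uncertain to that extent. Ly6c1 itself had 0 to 10 counts in a library, where Ly6c2 had 858 to 8064. Of the exonic bases of S1pr5, 51 are shared with the opposite-strand gene Gm48303, and of those of Cx3cr1, 78 with Gm33858. Of the exonic bases of Cd27, 129 are shared with Mir8113 on the same strand. Whether the counting used strand is not given in the sources used here.

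The upstream sequences of Ly6c2 and Ly6c1 are shown because the first was the member with the lowest adjusted p and the second its near copy with few counts, and that of S1pr5 because its level varied with that of Ly6c2 across libraries. Each is the 250 bases before the gene's first listed start site, 5′ to 3′ on the gene's strand (minus), from RefSeq sequence of GRCm38.p6, at chr15:75111972-75112221 for Ly6c2, chr15:75048838-75049087 for Ly6c1 and chr9:21248444-21248693 for S1pr5. Capitals mark the runs of at least 12 bases that the Ly6c2 and Ly6c1 windows share, which cover 47 of the 250 bases (18.8%) of each. The S1pr5 window has none marked and is 69.2% G or C, against 48.4% for Ly6c1.
Ly6c2: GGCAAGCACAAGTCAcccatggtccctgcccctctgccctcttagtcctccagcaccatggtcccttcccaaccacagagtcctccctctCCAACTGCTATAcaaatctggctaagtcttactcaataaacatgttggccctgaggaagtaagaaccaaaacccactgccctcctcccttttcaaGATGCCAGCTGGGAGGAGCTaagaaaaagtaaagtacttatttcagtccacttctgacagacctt
Ly6c1: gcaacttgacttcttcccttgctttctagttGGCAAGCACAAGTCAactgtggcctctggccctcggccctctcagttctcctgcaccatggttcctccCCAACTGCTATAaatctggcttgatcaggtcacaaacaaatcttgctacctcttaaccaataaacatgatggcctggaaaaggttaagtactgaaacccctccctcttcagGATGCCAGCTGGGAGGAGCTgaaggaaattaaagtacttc
S1pr5: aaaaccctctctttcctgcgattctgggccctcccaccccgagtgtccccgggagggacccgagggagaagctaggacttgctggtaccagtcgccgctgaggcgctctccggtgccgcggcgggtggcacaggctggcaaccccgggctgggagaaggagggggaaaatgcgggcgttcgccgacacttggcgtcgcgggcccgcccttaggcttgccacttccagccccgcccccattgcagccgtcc
Of the 6 members, 5 had a promoter in the table, and Klrg1 is named only. A set of 3 motifs was looked for on both strands of these windows. They were a T-box half-site (TCACACC or GGTGTGA, held by 3.33% of 32851 promoter windows of that length), an E-box bound by ZEB factors (CACCTG or CAGGTG, 17.2%) and an interferon regulatory factor element (GAAA and GAAA with 2 bases between them, or TTTC and TTTC on the other strand, 2.98%). None of the 3 occurred in a window of a member.

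Library totals ran from 5138651 to 14863500 counts, with a median of 10489204, and levels are given as CPM, counts scaled to the effective size of their library. All 6 members were among the 17097 genes tested (37.8% of the table). The NK cell identity of the libraries was checked with 12 genes. All were tested, and their summed level was 23341 to 41772 CPM, with Ncr1, which encodes NKp46, at 1625 to 4040. Of the T cell markers, Cd3e reached at most 5.00 CPM, Cd3d 30.6 and Cd3g 24.2 (both in RMA-KR intermediate 4), Cd5 23.5 (RMA early 2) and Trac 19.9 (RMA-KR late 1), and Cd3d and Trac were at 0 in no library. S100a8 of neutrophils reached 2.51. Their part in the results was not tested. The study states group sizes in mice, but the labels do not tie each library to 1 mouse, so p-values measure the spread between libraries, which may be technical in part. Control 4 and RMA-KR intermediate 3, 4 and 5 stood apart from the other 20 libraries. Of 16 immediate early genes, such as Fos and Egr1, 15 were tested. The summed level of these 15 was 1723 to 2002 CPM in the 4 libraries, against 5052 to 12395 in the others. The sum also moved with the groups, at 5535 to 5823 CPM in RMA intermediate and 5052 to 6671 in RMA late against 7598 or more in the other libraries that do not stand apart. Of these genes, Egr1 was called higher in RMA-KR late against control, with its highest level in RMA-KR late 3 (116 CPM), and Fosb was called lower in RMA late than in RMA early. The part of these genes in the results was not tested. The same 4 libraries had Klrg1 at 266 to 321 CPM (others 359 to 1086), Itgam at 75.9 to 139 (others 157 to 394), Ltb at 181 to 322 (others 11.6 to 60.7) and Il7r at 65.5 to 133 (others 0.103 to 24.3). Klrg1 and Itgam were thus lower than in any other library. These 4 libraries also had the most genes with a count, 24621 to 27820 (others 15263 to 24234). The summed level of the NK cell genes was 23341 to 25078 CPM in RMA-KR intermediate 3, 4 and 5, below every other library. It was 27812 in control 4 and 27227 to 41772 in the others. Of these NK cell genes Gzma had the highest median (9942 CPM), and it is also among the late-stage genes followed here. Gzma was at 4445 to 6066 CPM in the 4 libraries, below every other (7779 to 16442). Prf1 (2514 to 3297, others 2809 to 6809) and Eomes (213 to 380, others 161 to 388) overlapped. Il2rb was highest in RMA-KR intermediate 4 (3711). The share of NK cells in these libraries was not tested. Of the 12 early-stage genes followed here, Ltb, Il7r and Cxcr3 were higher in these 4 than in any other library, Cd69 was lower (60.4 to 120 CPM, others 189.5 to 706), and the other 8 overlapped. Cd27 in these 4 was at 191 to 258 CPM, within the range of the others (114 to 312). The sum of 6 genes listed for type 1 innate lymphoid cells, all tested, was 269 to 365 CPM in RMA-KR intermediate 3, 4 and 5, above every other library. Control 4, at 165, was within the range of the others (33.6 to 188). Il21r had the highest median of the 6 (73.3 CPM), where the median of the sum was 101. Cxcr6 (38.8 CPM), Itga1 (19.3), Tmem176b (76.1) and Il21r (187) were highest in RMA-KR intermediate 4 and Tmem176a (34.5) in RMA-KR intermediate 5. The part of such cells in the results was not tested. The called results of the members are given with and without these 4 libraries.

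**Figure D1:**
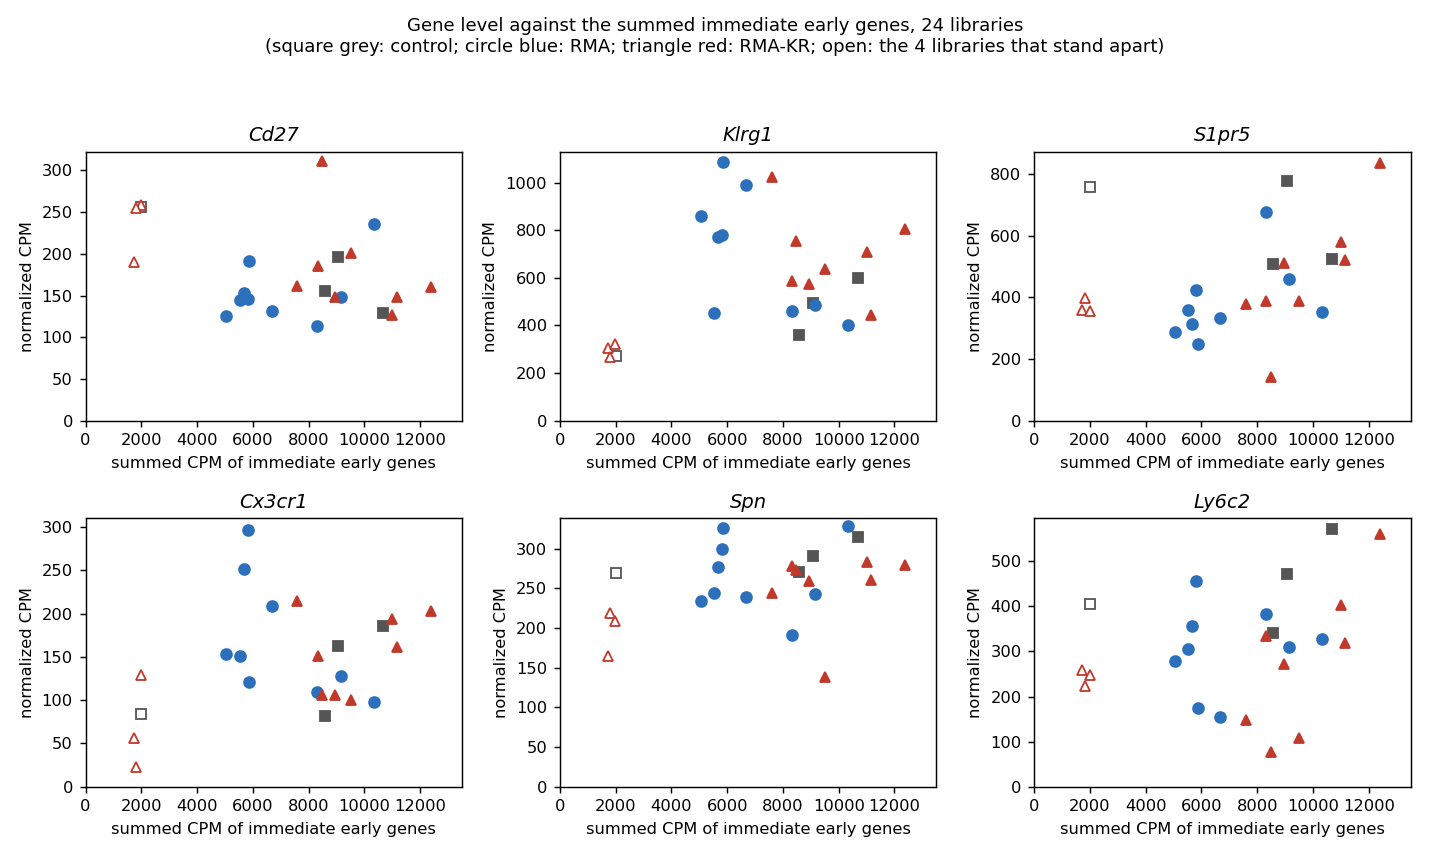
Level of each of the 6 genes (y axis, normalized CPM) against the summed level of the 15 tested immediate early genes (x axis, CPM), 1 point a library. The 4 open points are control 4 and RMA-KR intermediate 3, 4 and 5, at 1723 to 2002 CPM on the x axis, and hold the 4 lowest Klrg1 levels.

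Per kilobase of transcript, the members differed widely in control NK cells. The mean level was 613 ± 134 CPM per kb for Ly6c2, 305 ± 103 for Klrg1, 277 ± 83.0 for Cd27, 257 ± 58.5 for S1pr5, 133 ± 9.77 for Spn and 34.2 ± 14.3 for Cx3cr1 (SD, n = 4). Over the 24 libraries the range of a member's CPM was 2.37-fold for Spn, 2.75-fold for Cd27, 4.09-fold for Klrg1, 5.94-fold for S1pr5, 7.47-fold for Ly6c2 and 13.3-fold for Cx3cr1. Spn and Cd27 had the smallest ranges. The range of Cx3cr1 rests on RMA-KR intermediate 5, at 22.3 CPM, and in the 20 libraries that do not stand apart Cx3cr1 was at 82.2 to 296.

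**Figure D2:**
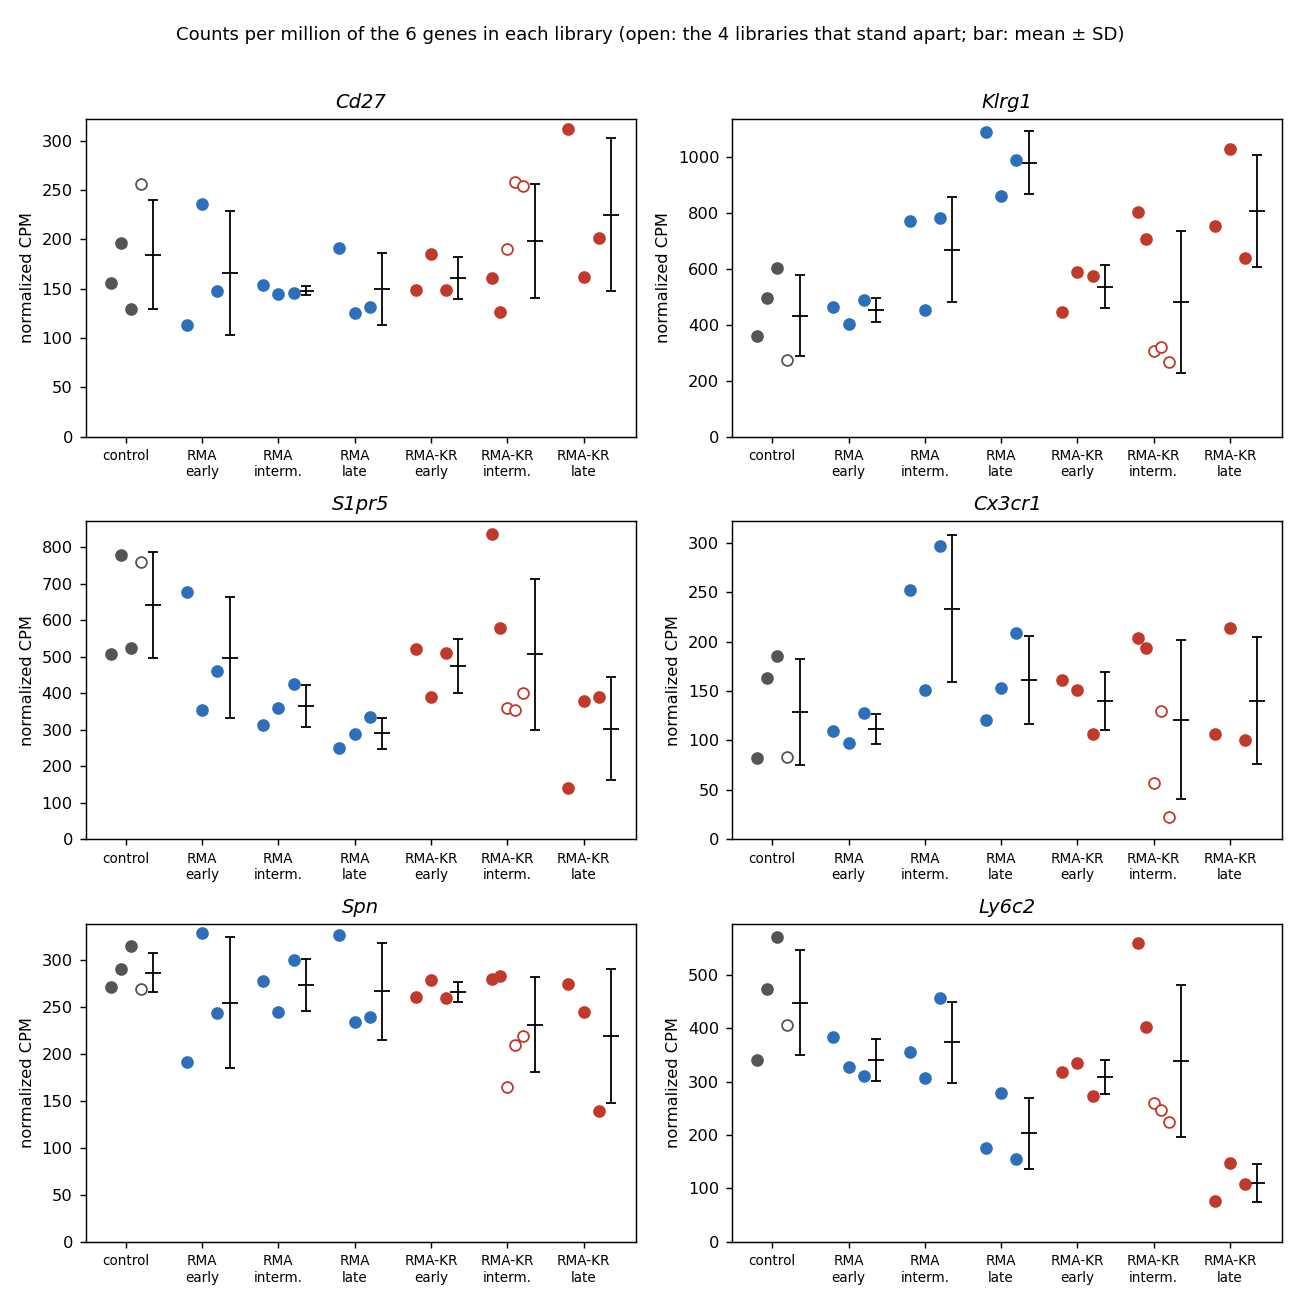
Normalized CPM (y axis) of each gene in each of the 24 libraries, by group (x axis), with the mean and SD at the right of each group. Ly6c2 in the RMA-KR late libraries (76.4 to 147 CPM) lies below every library of each other group, and Klrg1 in the RMA late libraries (860 to 1086) above every control.

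Against control, at the late stage of RMA growth, Klrg1 rose and Ly6c2 fell among the 6 members. At the late stage of RMA-KR growth Ly6c2 fell and was the only member called. No member was called at the early or intermediate stage. The sum of 7 genes listed for dendritic cells, all tested, moved with the RMA groups. This sum was 22.2 to 48.2 CPM in the controls and 60.5 to 75.7 in RMA early. It was 115 to 123 in RMA intermediate and 62.5 to 125 in RMA late. The RMA-KR groups overlapped the controls, at 28.8 to 56.1 (early), 28.5 to 109 (intermediate) and 30.1 to 63.5 CPM (late). The part of such cells in the results was not tested. Calls needed more than a 2-fold change and an adjusted p below 0.05 in edgeR's quasi-likelihood test over all 17097 genes. In RMA late against control 1.79% of all genes were called, 1.42% higher and 0.368% lower, and 1 member was called in each direction. Without the fold limit 2.66% passed, and the members that did were the same 2. In RMA-KR late against control 0.983% of all genes were called, 0.719% higher and 0.263% lower (1.22% without the fold limit), and 0 and 1 members were. In RMA early against control 0% of all genes were called, though 7.04% had an unadjusted p below 0.05, none of them a member, and DESeq2's default settings called 66 genes. In RMA-KR early 0.0819% were called (0.0994% without the fold limit, and 8.71% at an unadjusted p below 0.05). In RMA intermediate 1.65% were called, 1.26% higher and 0.386% lower, and in RMA-KR intermediate 0.0175%, all of them higher and the same share without the fold limit. No member passed in these 4 comparisons.

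Groups that do not overlap are a looser measure. In RMA early against control 2.12% of all genes were higher and 4.94% lower without overlap, and 0 members. In RMA-KR early these shares were 4.5% and 6.01%, with 1 member lower (Ly6c2). In RMA intermediate they were 10.2% and 10.5%, with 1 member lower (S1pr5), and in RMA-KR intermediate 1.33% and 1.29%, with 0 members. In RMA late they were 9.24% and 8.81%, and in RMA-KR late 5.88% and 7.73%, with 1 member higher (Klrg1) and 2 lower (S1pr5 and Ly6c2) in each. The median log2 fold change over the members was -0.16 in RMA intermediate (all genes -0.29), -0.20 in RMA late (all genes -0.18) and -0.13 in RMA-KR late (all genes -0.18). It was -0.19 in RMA early (all genes -0.06), -0.15 in RMA-KR early (all genes 0.0034) and -0.20 in RMA-KR intermediate (all genes 0.01). The 6 comparisons share the same 4 control libraries.

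**Figure D3:**
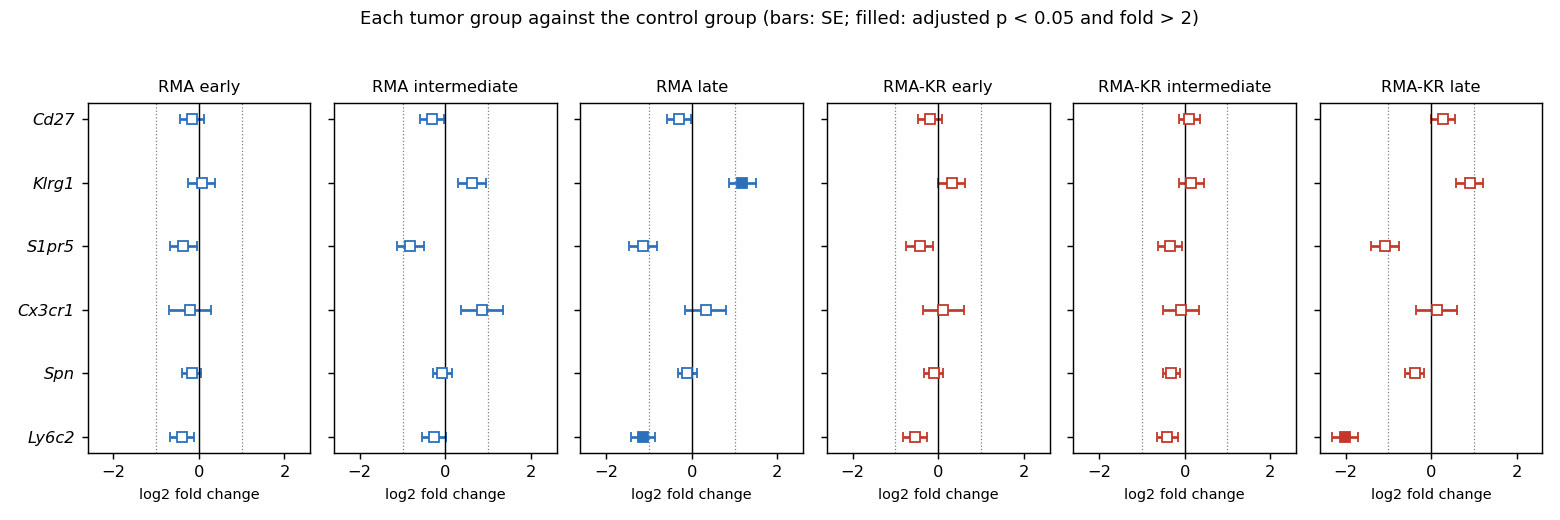
log2 fold change against control (x axis, with SE) of the 6 genes (y axis) in each tumor group. Filled squares passed the threshold (Klrg1 and Ly6c2 in RMA late, Ly6c2 in RMA-KR late), and dotted lines mark a 2-fold change.

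CD27 is a receptor of the TNF receptor family that binds CD70 and signals through TRAF2 and TRAF5, and it is the one member that marks the less mature stages. Cd27 was at 155, 196, 130 and 256 CPM in the controls. It was at 114, 236 and 148 in RMA early, 153, 144 and 146 in RMA intermediate and 192, 126 and 131 in RMA late. In RMA-KR early it was at 149, 186 and 149, in RMA-KR intermediate at 160, 127, 191, 258 and 254, and in RMA-KR late at 312, 162 and 201. The groups overlapped in every comparison. The highest library of the series was RMA-KR late 1, and the next 3 were RMA-KR intermediate 4, control 4 and RMA-KR intermediate 5, which are among the 4 that stand apart. RMA-KR intermediate 3, which also stands apart, was at 191 CPM, below RMA early 2, RMA-KR late 3, control 2 and RMA late 1. The order of the group means ran from RMA-KR late (225 ± 77.8, n = 3) through RMA-KR intermediate (198 ± 57.8, n = 5) and control (184 ± 55.3, n = 4) to RMA early (166 ± 63.2, n = 3), RMA-KR early (161 ± 21.2, n = 3), RMA late (149 ± 36.7, n = 3) and RMA intermediate (148 ± 4.87, n = 3), and no neighbours in it differed beyond their SD. In the 11 comparisons made, its log2 fold change ran from -0.32 to 0.59 and the adjusted p from 0.447 upward in edgeR's quasi-likelihood test. The highest of these was RMA-KR late against RMA late, 0.59 with a 95% confidence interval of -0.03 to 1.21. Within RMA-KR intermediate, the 2 libraries that do not stand apart averaged 143 CPM and the 3 that do 234.

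KLRG1 is an inhibitory lectin-like receptor that binds cadherins and is gained late. Klrg1 was at 359, 493.3, 601 and 272 CPM in the controls. The RMA late libraries, at 1086, 860 and 989, were all above every control. Its mean was 979 ± 113 CPM (SD, n = 3) against 431 ± 145 (n = 4), a log2 fold change of 1.18 (adjusted p = 0.0489, SE 0.32), just under the threshold. The call was lost when any 1 of 6 libraries (control 1, 2 or 4, or RMA late 1, 2 or 3) was left out, with log2 fold changes of 0.99 to 1.36 and adjusted p of 0.0455 to 0.197 over all 7 such fits. Control 4 is one of the libraries that stand apart. Without all 4 of these the log2 fold change was 1.03 (adjusted p = 0.0229), and with a term for them in the model it was 0.93 (adjusted p = 0.0137), which is below the fold limit. The RMA-KR late libraries were at 753, 1025 and 636 CPM, again all above the controls, and the log2 fold change of 0.90 (SE 0.32) did not pass the test (adjusted p = 0.228).

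Before the late stage, Klrg1 overlapped the controls. It was at 462, 403 and 487 CPM in RMA early and at 446, 587 and 573 in RMA-KR early. In RMA intermediate it was at 771, 450 and 780, of which 2 libraries exceeded every control. In RMA-KR intermediate the level split, with 804 and 707 in replicates 1 and 2 and 306, 321 and 266 in replicates 3, 4 and 5, the libraries that stand apart. The mean of the 5, 481 ± 254 (SD, n = 5), against control gave a log2 fold change of 0.16 (95% confidence interval -0.43 to 0.75). From early to late, Klrg1 did not overlap in either line. The log2 fold change was 1.12 (adjusted p = 0.0862, SE 0.35) for RMA and 0.59 (adjusted p = 0.416, SE 0.35) for RMA-KR. Neither passed the test, in which 2.01% of all genes were called for RMA late against early and 0.322% for RMA-KR, while non-overlapping higher levels were found for 11.5% and 7.24%. The former reached the call without the 4 libraries that stand apart and in 3 other fits. In the order of the means, RMA late was followed by RMA-KR late (805 ± 200), RMA intermediate (667 ± 188) and RMA-KR early (535 ± 78.0), then by RMA-KR intermediate, RMA early (451 ± 43.2) and control. No neighbours differed beyond their SD.

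S1PR5 is a receptor for sphingosine-1-phosphate. S1pr5 was at 507, 777, 523 and 758 CPM in the controls, the highest group mean (641 ± 146, n = 4). In RMA late it was at 249, 288 and 334 and in RMA-KR late at 141, 378 and 390, so that all 6 late libraries were below every control. The log2 fold change against control was -1.15 (adjusted p = 0.0573, SE 0.32) for RMA and -1.08 (adjusted p = 0.114, SE 0.32) for RMA-KR in edgeR's quasi-likelihood test, and neither was called. DESeq2 with its default settings called both (adjusted p = 0.0135 and 0.0457). The RMA late call was also made with betaPrior=TRUE, with both other filters on low counts, when only these groups were fitted and with a term for the 4 libraries that stand apart. RMA-KR late 1, at 141 CPM, was the lowest of the series, and without it the RMA-KR late log2 fold change was -0.75. RMA intermediate, at 312, 358 and 425, was also below every control, with a log2 fold change of -0.81 (adjusted p = 0.234, SE 0.32).

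The early groups overlapped the controls, with S1pr5 at 678, 353 and 460 CPM in RMA and 522, 389 and 511 in RMA-KR. RMA-KR intermediate was at 836 and 579 in replicates 1 and 2 and at 360, 355 and 399 in replicates 3 to 5. Control 4, which stands apart with the latter in immediate early genes, had 758, so this split was not shared by all 4. RMA late was below RMA early in each library (log2 fold change -0.78, SE 0.34, adjusted p = 0.239), where 7.63% of all genes were lower without overlap. RMA-KR late overlapped RMA-KR early (-0.65, 95% confidence interval -1.34 to 0.05). In the order of the means, control was followed by RMA-KR intermediate (506 ± 206), RMA early (497 ± 165), RMA-KR early (474 ± 73.5), RMA intermediate (365 ± 56.8), RMA-KR late (303 ± 140) and RMA late (290 ± 42.5). The gap between RMA-KR early and RMA intermediate was 1.48 times the larger SD, though the groups overlapped, and the other neighbours differed by less than their SD.

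CX3CR1 is the receptor of the chemokine fractalkine. Cx3cr1 was at 82.2, 163, 186 and 83.5 CPM in the controls. The highest group mean was that of RMA intermediate, at 252, 151 and 296 CPM, with a log2 fold change against control of 0.86 (95% confidence interval -0.14 to 1.85, adjusted p = 0.363). In RMA late it was at 121, 153 and 209, in RMA-KR late at 106, 214 and 101, in RMA early at 110, 97.7 and 128 and in RMA-KR early at 161, 151 and 106. RMA-KR intermediate held 203 and 194 CPM in replicates 1 and 2, and 56.8, 129 and 22.3 in replicates 3 to 5. Every comparison had overlapping groups, and none was called (lowest adjusted p 0.350). That value belongs to RMA-KR intermediate against RMA intermediate, with a log2 fold change of -0.94 (SE 0.45), which moved from -1.21 to -0.67 as each library was left out. Without the 3 RMA-KR intermediate libraries that stand apart, the group averaged 199 CPM, against 233 ± 74.2 (SD, n = 3) in RMA intermediate. In the order of the means, RMA intermediate, RMA late (161 ± 44.4), RMA-KR late (140 ± 63.9), RMA-KR early (140 ± 29.2), control (129 ± 53.6), RMA-KR intermediate (121 ± 80.6) and RMA early (112 ± 15.3), no neighbours differed beyond their SD.

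CD43 is a heavily glycosylated sialomucin of the leukocyte surface. Spn varied least of the members. It was at 271, 291, 315 and 269 CPM in the controls, at 191, 329 and 243 in RMA early, at 277, 244 and 299 in RMA intermediate and at 326, 234 and 240 in RMA late. In RMA-KR early it was at 260, 278 and 259, in RMA-KR intermediate at 280, 283, 165, 209 and 219, and in RMA-KR late at 274, 245 and 139. Its groups overlapped throughout, and the group means lay between 219 ± 71.1 (RMA-KR late, n = 3) and 287 ± 21.1 (control, n = 4), with no neighbours apart beyond their SD. The log2 fold change ran from -0.39 to 0.07 over the 11 comparisons, with adjusted p of 0.404 and upward. The 95% confidence interval for RMA late against control was -0.55 to 0.35.

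Ly6C is a small GPI-anchored protein of the LY6 family. Ly6c2 was at 341, 472, 570 and 406 CPM in the controls, the highest group mean (447 ± 97.9, n = 4). It was at 76.4, 147 and 107 CPM in RMA-KR late and at 176, 279 and 154 in RMA late. All 6 late libraries were below every control. Against control it changed by -2.02 on the log2 scale in RMA-KR late (adjusted p = 0.00113, SE 0.30 in edgeR's quasi-likelihood test), the 11th lowest p of all genes tested in that comparison. It was -1.14 in RMA late (adjusted p = 0.0308, SE 0.29). The former call was made in each of the 7 fits with 1 library left out (log2 fold change -2.26 to -1.82, adjusted p 0.00145 to 0.00823) and in the 9 other alternatives (-2.02, adjusted p = 0.00166, without the 4 libraries that stand apart). The latter was lost in 5 of 7 such fits, those without control 2, 3 or 4 or RMA late 1 or 3 (over all 7, -1.41 to -0.94, adjusted p 0.0343 to 0.203). Without the 4 libraries that stand apart it was -1.18 (adjusted p = 0.0215). Between the late groups, every RMA-KR library was below every RMA library, with a log2 fold change of -0.88 (SE 0.30) that did not pass the test (adjusted p = 0.655). In that comparison 0% of all genes were called in either direction (7.31% at an unadjusted p under 0.05, while DESeq2's default settings called 56 genes), and 5.18% were lower without overlap.

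The early groups lay nearer to control. In RMA-KR early, Ly6c2 at 318, 335 and 273 CPM was below every control, with a log2 fold change of -0.54 (95% confidence interval -1.12 to 0.05, adjusted p = 0.606). RMA early, at 384, 327 and 310, overlapped the controls. RMA intermediate was at 356, 307 and 457, and RMA-KR intermediate at 560 and 402 in replicates 1 and 2 and at 259, 247 and 224 in replicates 3 to 5. From early to late, Ly6c2 fell in the RMA-KR line, with a log2 fold change of -1.48 (adjusted p = 0.0342, SE 0.31), where 0.0877% of all genes were called lower. That call was lost in 5 of the 6 fits with 1 library left out (adjusted p 0.0445 to 0.122), all but the one without RMA-KR late 2, and when only these groups were fitted (adjusted p = 0.218). Without the 4 libraries that stand apart it was -1.48 (adjusted p = 0.0203). In the RMA line the late libraries were also below the early ones, and the log2 fold change of -0.75 (adjusted p = 0.206, SE 0.30) was not called. In the order of the means, RMA intermediate (373 ± 76.6), RMA early (340 ± 38.8), RMA-KR intermediate (338 ± 142), RMA-KR early (309 ± 32.1), RMA late (203 ± 66.5) and RMA-KR late (110 ± 35.5) followed control. The last 2 steps were 1.59 and 1.39 times the larger SD, and the others were below 1.

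Ly6c2 is also a marker of monocytes, so monocyte and macrophage genes were followed beside it. Of 15 such genes 8 were tested. Their summed level was 966 to 1193 CPM in the controls, 1328 to 1650 in RMA late and 1612 to 1943 in RMA-KR late, nearly all of it Ccr2, the receptor of CCL2. Over the 14 listed genes other than Ccr2, tested or not, the sum was 19.8 to 32.2 CPM in the controls. This sum was 37.4 to 56.5 in RMA late and 47.6 to 88.0 in RMA-KR late. It was 44.6 to 67.6 in RMA-KR early and 9.74 to 54.1 in RMA early, which overlapped the late groups. The defining markers Adgre1, Fcgr1, Cd14 and C1qa were at 0 in 16, 22, 20 and 22 of the 24 libraries and never above 4.36 CPM. Cd68, which is less specific, was at 0 in no library, with a median of 16.2 CPM, and was highest at 78.0 in RMA-KR late 1, the library lowest in Ly6c2. Lyz2 reached 17.2, Ms4a6c 15.8 and Cybb 12.3 CPM. Igkc, an immunoglobulin gene of B and plasma cells, was at 134 and 26.3 CPM in RMA-KR late 2 and 3 and at 59.1 in RMA-KR early 1, against 0 to 10.6 elsewhere. The part of these cells in the results was not tested.

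Between RMA-KR and RMA, no member was called at any stage. Of all genes, 0.304% were called at the early stage (0.129% higher and 0.175% lower), 0.503% at the intermediate and 0% at the late. Groups did not overlap for 7.21% (higher) and 5.56% (lower) of all genes at the early stage and for 3.36% and 5.82% at the intermediate, and for no member. At the late stage 1 member, Ly6c2, was lower without overlap, where 5.18% of all genes were. At the early stage the members' log2 fold changes ran from -0.14 (Ly6c2) to 0.32 (Cx3cr1), and all 6 overlapped. The median over the members was 0.01, beside 0.03 over all genes tested. The intermediate medians were -0.19 and 0.23, in the same order. The late medians were -0.24 over the members and -0.06 over all genes. The 95% confidence interval of the late difference was -0.999 to 0.44 for Klrg1 and -0.63 to 0.75 for S1pr5, and differences within these limits are not excluded by the fit.

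Further genes of NK cell maturation were followed in lists. Of 12 genes of the early stages, such as Kit, Il7r and Tcf7, all were tested. Cd7 was called lower in RMA intermediate against control, where 0.386% of all genes were, and none was called in the other comparisons with control by edgeR's main test. Ctla2a was called lower in RMA intermediate as well with DESeq2 and with other filters. Cd7, a small immunoglobulin-family receptor, fell from 364 ± 130 (n = 4) to 128 ± 3.88 CPM (n = 3), a log2 fold change of -1.51 (adjusted p = 0.00197, SE 0.26). In the RMA line, Thy1 was called higher at the late than at the early stage. That call was lost when only these groups were fitted and without the 4 libraries that stand apart. With 1 library left out, the call was kept only without RMA late 3. Against control, the list's median log2 fold change was -0.85 in RMA intermediate (all genes -0.29), -0.53 in RMA late (all genes -0.18) and -0.25 in RMA-KR late (all genes -0.18). It was -0.57 in RMA early (all genes -0.06) and 0.09 in RMA-KR early (all genes 0.0034). In RMA-KR intermediate it was 0.65 (all genes 0.01), and there the list's summed level was 1426 and 1444 CPM in the 2 libraries that do not stand apart and 1973 to 2426 in the 3 that do. Kit, the stem cell factor receptor, was at 117 to 266 CPM in the 4 libraries that stand apart and at 9.16 to 184 in the others, and it was not called in any comparison by edgeR's main test. Between RMA-KR and RMA the list's median was 0.85 at the early stage (all genes 0.03), 1.44 at the intermediate (all genes 0.23) and 0.19 at the late (all genes -0.06). At the intermediate stage, between RMA-KR and RMA, the list's count depended on the test. Cd7 alone was called, higher in RMA-KR, in edgeR's main test, 5 genes were with DESeq2 (Kit, Ltb, Tcf7, Cd7 and Cxcr3), and 6 with no filter on low counts (Il7r beside these), all higher.

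Of 14 genes of the late stages, all tested, 2 were called higher and 0 lower in RMA intermediate against control, and 2 higher and 1 lower in RMA late. In both, Gzmb, the protease granzyme B of the cytotoxic granules, and Irf8, a transcription factor, rose. In these groups the dendritic cell sum given above was also above every control. Gzmb was at 1564 ± 939 CPM in the controls (n = 4), 4236 ± 259 in RMA intermediate and 3540 ± 437 in RMA late (n = 3 each), with log2 fold changes of 1.44 (adjusted p = 0.00834, SE 0.30) and 1.18 (adjusted p = 0.0293, SE 0.30). Irf8 was higher by 1.12 (adjusted p = 0.00678) and 1.01 (adjusted p = 0.0119) on the log2 scale. In RMA late both calls were lost without the 4 libraries that stand apart. Klf2, a transcription factor that promotes S1pr1 in lymphocytes, fell from 204 ± 41.9 CPM in the controls (n = 4) to 92.1 ± 6.14 in RMA late (n = 3), a log2 fold change of -1.15 (adjusted p = 0.0126, SE 0.26). Its level of 102 ± 2.29 in RMA-KR late gave -0.997 (adjusted p = 0.0532, SE 0.25), not a call. Klf2 was also called lower in RMA late than in RMA early (log2 fold change -1.11, adjusted p = 0.0265). No late-stage gene was called in RMA-KR late against control, but Klf2 was called lower there without the 4 libraries that stand apart. The list's median was 0.20 in RMA intermediate, 0.18 in RMA late and -0.10 in RMA-KR late, beside medians over all genes of -0.29, -0.18 and -0.18. It was -0.23 in RMA-KR intermediate (all genes 0.01), 0.0008 in RMA early (all genes -0.06) and 0.04 in RMA-KR early (all genes 0.0034).

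Beside the genes called above, Itgam, Zeb2, Tbx21, Eomes and S1pr1 were not called in edgeR's main test against control. Itgam was at 263 ± 106 CPM in the controls, 292 ± 46.5 in RMA late and 213 ± 85.1 in RMA-KR late. Between RMA-KR and RMA intermediate its log2 fold change was -1.01 (adjusted p = 0.238), and with no filter on low counts it was called lower there. Zeb2 was at 412 ± 102 in the controls, 245 ± 55.0 in RMA late and 240 ± 67.7 in RMA-KR late, with log2 fold changes of -0.75 (adjusted p = 0.358) and -0.78 (adjusted p = 0.341). With a term for the 4 libraries that stand apart, Zeb2 was called lower in both. From early to late its log2 fold change was -1.09 for RMA (adjusted p = 0.140) and -1.06 for RMA-KR (adjusted p = 0.249), neither called in edgeR's main test. With no filter on low counts Zeb2 was called lower from early to late in both lines. With at least 10 counts in every library it was in RMA. Tbx21 was at 871 ± 148 in the controls, 636 ± 58.7 in RMA late (-0.45, adjusted p = 0.276) and 521 ± 177 in RMA-KR late (-0.74, adjusted p = 0.0569). Eomes, the other T-box factor of NK cells, was at 306 ± 61.6 in the controls and 182 ± 9.53 in RMA late, a log2 fold change of -0.75 (adjusted p = 0.0352) that is below 2-fold. In RMA-KR late it was at 258 ± 44.4 (-0.24, adjusted p = 0.583). S1pr1, the related sphingosine-1-phosphate receptor, was at 79.2 ± 40.1 in the controls and 28.6 ± 2.91 in RMA late (-1.47, adjusted p = 0.119), and was called lower with DESeq2 and with no filter on low counts. In RMA-KR late it was at 46.5 ± 26.5 (-0.77, adjusted p = 0.445). Of 21 ligands, signaling partners and relatives of the members, among them Traf2, Traf5, Inpp5d, Gnai2, Msn, Ly6a and Ly6e, 15 were tested and 0 were called in each of the 11 comparisons (edgeR's quasi-likelihood test).

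The members fell into patterns across libraries, described here by Pearson's r of log2 CPM over the 24 libraries, which share groups, so that no test is given. S1pr5 and Ly6c2 varied together (r = 0.745), as did Klrg1 and Cx3cr1 (r = 0.696). Without the 4 libraries that stand apart these were 0.743 and 0.531 (20 libraries). Klrg1 did not follow S1pr5 (r = -0.318) or Ly6c2 (r = -0.255), although all mark late stages. For Cd27, r with the other members ran from -0.525 (Cx3cr1) to -0.041 (Spn). Without the 4 libraries it was 0.153 with Spn, and with Klrg1 it moved from -0.399 to -0.007. Ly6c2 followed Tbx21 (r = 0.785) and S1pr5 followed Tbx21 (r = 0.689) and Klf2 (r = 0.668). Klrg1 was related to Itgam with r = 0.541 over all libraries and r = -0.174 without the 4 that stand apart, so that relation rests on them.

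**Figure D4:**
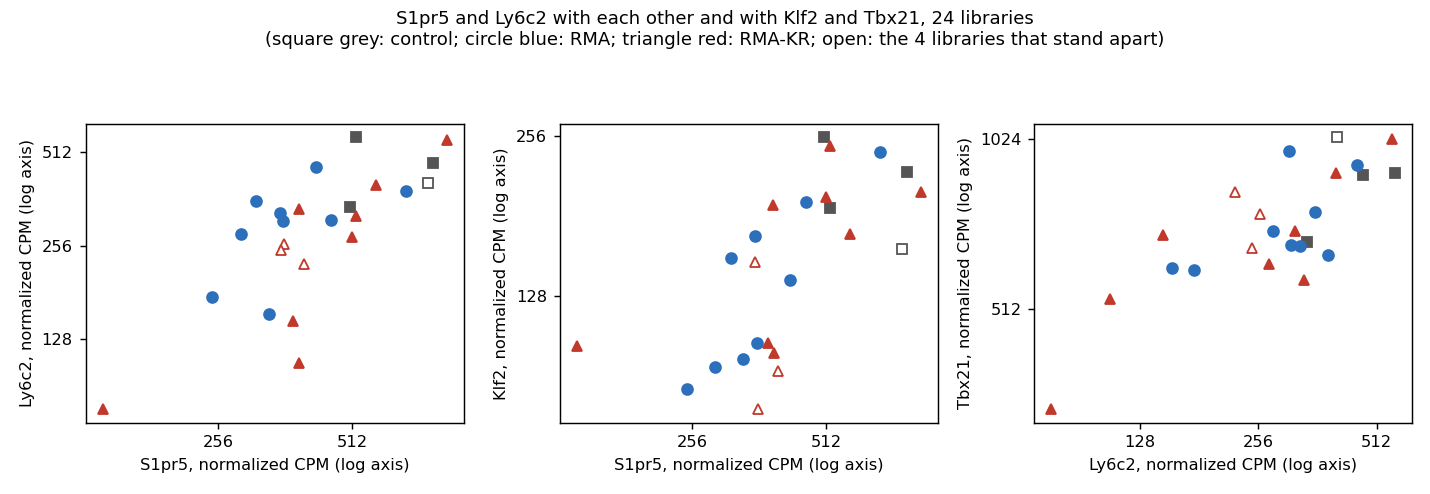
Normalized CPM, on log axes, of S1pr5 against Ly6c2 and Klf2, and of Ly6c2 against Tbx21, 1 point a library. The r over 24 libraries are 0.745, 0.668 and 0.785, and RMA-KR late 1 holds the lowest S1pr5, Ly6c2 and Tbx21 levels of the series.

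Among 9472 genes with a mean of at least 5 CPM, the 3 most like each member over the 24 libraries were as follows. For Klrg1 these were Gzma (r = 0.904), which encodes granzyme A, Hist1h2bc (0.891) and Arpc5 (0.888). Gzma, like Klrg1, was lower in the 4 libraries that stand apart (4445 to 6066 CPM) than in any other (7779 to 16442). The r of these most similar genes were not computed without those 4. For S1pr5 they were Sh2d3c (0.894), Rhof (0.800) and St5 (0.794). For Ly6c2 the first was I830127L07Rik (0.868), annotated as a transcribed pseudogene of the same cluster, followed by Cdh22 (0.836) and Dnajb2 (0.827). I830127L07Rik shares 3 of the 817 50-base windows of Ly6c2. Its level was 96.1 ± 28.6 CPM in the controls (n = 4), 34.7 ± 5.91 in RMA late and 23.4 ± 2.35 in RMA-KR late (n = 3 each). For Cx3cr1 they were Prf1 (0.790), the gene of perforin, Fgl2 (0.747) and Cma1 (0.745). Spn was closest to Usp11 (0.868), Stx7 (0.801) and Cdc5l (0.801). The values for Cd27 were lower, with Hars2 (0.687), Chl1 (0.681) and Crtam (0.675).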

How the data were processed

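RNA of splenic NK cells was made into libraries with an mRNA-seq kit and read as single reads of 50 bases. The authors trimmed with cutadapt 1.10, removed ribosomal reads with bowtie 2.2.8, aligned to mm10 with STAR 2.5.3a and counted on Ensembl 96 genes with htseq-count 0.6.1p1 (union mode). What the authors deposited, and what is used here, are raw whole-number counts per gene. The table holds 48 further per-library columns of normalized values and columns of the authors' own fold changes and p-values, which were not used. The deposited median transcript length, in bases (other), served for CPM per kb.

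The members and lists were chosen with earlier results of these data known. The analysis used edgeR 4.0.16 and limma 3.58.1 under R 4.3.3. Genes were kept with filterByExpr, libraries scaled with TMM, and the robust quasi-likelihood model, with a mean for each of the 7 groups, took in all 24 libraries. Each comparison was tested 2-sided, with Benjamini-Hochberg adjustment over all 17097 genes. Calls needed more than a 2-fold change and an adjusted p below 0.05. Confidence intervals are from the fit. Total counts of 5138651 to 14863500 gave every member at least 227 counts in each library. Named genes were the members, Ly6c1, genes of the early-stage, late-stage and partner lists called in any comparison with control, Itgam, Zeb2, Tbx21, Eomes, Kit and S1pr1, and the 3 genes most correlated with each member (log2 CPM, prior count 2). Further genes (such as Ltb, Il7r, Igkc, Ccr2, Thy1, Egr1 and Fosb) were singled out after their values were seen. The study's own test, DESeq2 with betaPrior=TRUE, was an alternative, as were DESeq2 1.42.0 by default, its size factors, other filters, a replicate block, only the groups compared, and each library left out. A further 2 alternatives on the 4 libraries that stand apart were chosen after seeing the data. The procedure was tested on simulated data. Window and exon overlaps used GENCODE M21 and its transcripts. A marker gene of the identity check is not reported here.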

Additional observations from a re-analysis of the deposited data

Results flagged for a closer look

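Dixon's gap test, which looks for 1 library far from the others of its group, was past its limit in 0 of 12 sets of values (6 members in the control group and in RMA-KR intermediate). It cannot show a split such as that of Klrg1 in RMA-KR intermediate, with 2 libraries above 3. Groups of 3 libraries were not tested. The difference between the tumor lines was called for 2 named genes of the lists. Cd7 was higher in RMA-KR intermediate than in RMA intermediate, with a log2 fold change of 1.89 (adjusted p = 0.000335, SE 0.25 in edgeR's quasi-likelihood test), at 476 ± 126 CPM (SD, n = 5) against 128 ± 3.88 (n = 3). Gzmb was lower there, with a log2 fold change of -1.51 (adjusted p = 0.00771, SE 0.28), at 1484 ± 420 CPM (n = 5) against 4236 ± 259 (n = 3). Irf8 was also lower there with an adjusted p of 0.0283, but its log2 fold change of -0.98 was short of 2-fold. Both differences compare day 7 with day 4, so line and day cannot be told apart. Of the 5 RMA-KR intermediate libraries, 3 stand apart in immediate early genes. In the other 2, Cd7 was at 364 and 356 CPM and Gzmb at 1922 and 1832. Without the 4 libraries that stand apart, and with a term for them, Cd7 was called and Gzmb was not.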

How the results depend on the processing

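For the 15 member fold changes that were called, did not overlap or had an unadjusted p below 0.05, 235 alternatives were computed. None turned the direction, 203 kept the side of the threshold, 19 lost a call and 13 gained one. Over all 66 member fold changes 78 of 1050 alternatives changed sign, all of them of values not called. In RMA-KR late against control the count of members called was 2 (S1pr5 beside Ly6c2) with DESeq2's default settings, with no filter on low counts and with at least 10 counts in every library. These settings called 3.01%, 0.871% and 2.59% of all genes, in that order, against 0.983% in the main test. In RMA late against RMA early the count of members was 1 (Klrg1) with no filter, with at least 10 counts in every library, without the 4 libraries that stand apart and with a term for them. Of all genes, 1.16%, 7.14%, 1.6% and 2.29% were called there, in that order, against 2.01% in the main test. In RMA-KR late against RMA-KR early the count of members was 0 when only these groups were fitted, where 0.0168% of all genes were called. With 1 library left out, the count was 0 to 1 for RMA late against control, 1 for RMA-KR late against control and 0 to 1 for RMA-KR late against RMA-KR early. Those fits called 0.631% to 2.28%, 0.417% to 0.757% and 0.0654% to 0.255% of all genes, in the same order. The causes were not tested.

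The replicate numbers did not pair the samples, since same-numbered libraries correlated from -0.118 to 0.202 in their deviations from the group means and no comparison had every pair above 0.1. With a replicate block, RMA late against control kept 1 member called, Ly6c2 (log2 fold change -1.28, adjusted p = 0.0275), and Klrg1 had 1.00 (adjusted p = 0.0901). The block called 1.23% of all genes there. Counts over all genes moved more: for RMA late against control 306 genes were called, with 127 to 457 when a library was left out and 210 to 624 in the other alternatives, and for RMA late against RMA early 344, with 81 at the lowest when a library was left out and 1 to 972 in the others. In the same order, the ranges were 71 to 152 and 84 to 483 around 168 genes for RMA-KR late, 166 to 226 and 211 to 762 around 282 for RMA intermediate, 0 to 4 and 0 to 56 around 3 for RMA-KR intermediate, 0 to 11 and 0 to 147 around 14 for RMA-KR early, and 0 to 86 and 0 to 88 around 0 for RMA early, each against control. Between the lines they were 8 to 192 and 0 to 338 around 52 (early), 34 to 70 and 42 to 340 around 86 (intermediate) and 0 to 2 and 0 to 56 around 0 (late). For RMA-KR late against early they were 13 to 51 and 2 to 498 around 55. Depth limits the members little, and Cx3cr1 had the fewest counts, 227 in 1 library.

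Of the 13 calls gained, 6 were of S1pr5 in RMA late against control, 3 of S1pr5 in RMA-KR late and 4 of Klrg1 in RMA late against RMA early. In RMA late against control 2 or 3 members were called in the alternatives other than the block and the fits with 1 library left out, and with a term for the 4 libraries they were S1pr5 and Ly6c2. Those alternatives called 1.04% to 5.25% of all genes, against 1.79% in the main test.

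Among the list genes, Irf8 in RMA late against control also lost its call under DESeq2 with betaPrior=TRUE, with at least 10 counts in every library, with the replicate block, with a term for the 4 libraries and without control 1, 2 or 4 or RMA late 2. Gzmb there lost it when only these groups were fitted and without control 1, 2 or 4 or RMA late 1 or 2, and Klf2 without control 1 or RMA late 1 or 2. In RMA intermediate Gzmb lost it without control 1, and Irf8 without control 4 and with the term, while Cd7 kept it in every alternative run. In RMA-KR late Klf2 gained a call with at least 10 counts, the block and the term, and Ltb with DESeq2 and no filter. With no filter Il7r was also called lower in RMA early, RMA late and RMA-KR late, Ltb in RMA early and RMA intermediate, and Kit higher in RMA-KR intermediate, each against control. Thy1 in RMA late against control gained one with DESeq2, at least 10 counts, only these groups and the term, and in RMA intermediate with DESeq2 and only these groups. Cmklr1 was called lower in RMA-KR early, against control and against RMA early, with DESeq2 by default, with betaPrior=TRUE and with at least 10 counts, and higher in RMA-KR late than in RMA-KR early with both DESeq2 fits. Klf2 was called lower in that comparison with both, with at least 10 counts, without the 4 libraries and with the term. In RMA late against RMA early, both Thy1 and Klf2 lost it when only these groups were fitted, and Thy1 without the 4 libraries that stand apart, none of which is in either group. With 1 library left out there, Thy1 kept it only without RMA late 3, and Klf2 only without RMA early 2 or 3.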
